A study of Homo sapiens with 24 samples.

Results

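The enzymes that write N6-methyladenosine (m6A) onto messenger RNA are made from messenger RNAs that can carry the mark themselves. Peaks of m6A were followed on the transcripts of 10 genes: METTL3 and METTL14, the subunits WTAP, VIRMA, RBM15, RBM15B, ZC3H13 and CBLL1 of the same complex, the separate methyltransferase METTL16, and MAT2A, which makes the methyl donor. The genes were chosen by name, and every listed transcript was matched to a symbol through its RefSeq accession. All 10 had a peak in at least 1 of 4 deposited peak lists, among 9559 genes with such a peak, and together they held 55 of 52777 peaks. None of their listed accessions carried a copy number.

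RNA bound by an antibody against m6A (IP) and its input were sequenced from U2OS cells, a human osteosarcoma line, that were knocked out (KO) for METTL3 or wild type (WT). All cells were grown with 10 µM BrdU for 24 to 48 h; they received UVC (plus UV, a 50 J dose per the labels) or none (minus UV), and were collected after 2 min. The 24 samples comprised 2 IP libraries for KO plus UV, 3 for KO minus UV, 4 for WT plus UV and 3 for WT minus UV, each with its input. The sources used here give neither whether the KO line is 1 clone nor which bases of METTL3 it lacks. Each condition has a single list for all its replicates, with a start and an end along a transcript and no score, read count or depth. With no replicate values, the error of a difference between conditions is unknown and no test was made. The lists hold no transcript levels, so the knockout and the cell type could not be checked from them; of 9 osteoblast lineage markers 4 had a peak in a list, of 4 blood markers 0, of 4 epithelium markers 1 (EPCAM, in WT plus UV) and of 4 neuron markers 1 (RBFOX3, in WT minus UV).

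In the nucleus, METTL3 carries the catalytic site and METTL14 holds the RNA, forming the core of the writer. WTAP anchors the core in nuclear speckles, and VIRMA, ZC3H13, CBLL1 and the RNA-binding proteins RBM15 and RBM15B join it as regulatory subunits that help to choose where the mark is placed. METTL16 works apart from this complex, on hairpins in a few RNAs. The best known of these is the MAT2A messenger RNA, through which it adjusts the synthesis of S-adenosylmethionine (SAM), the methyl donor for both enzymes.

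The lists differed in size, and with them the chance that any gene had a peak. KO plus UV held 9471 peaks, KO minus UV 13852, WT plus UV 15465 and WT minus UV 13989. Of the 9559 genes, 57.7% had a peak in KO plus UV, 72.9% in KO minus UV, 83.4% in WT plus UV and 74.6% in WT minus UV. Of the 10 genes described here, 6 had a peak in KO plus UV, 8 in KO minus UV, 7 in WT plus UV and 7 in WT minus UV. Their peaks numbered 11 in KO plus UV, 16 in KO minus UV, 15 in WT plus UV and 13 in WT minus UV. METTL3, CBLL1, METTL16 and MAT2A had a peak in every list, as did 41.2% of all genes. The other 6 genes were missing from at least 1 list. A missing peak may mean an unmarked RNA, fewer marked cells, a low transcript level or a value under the caller's threshold, and a list of positions cannot tell these apart.

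**Figure D1:**
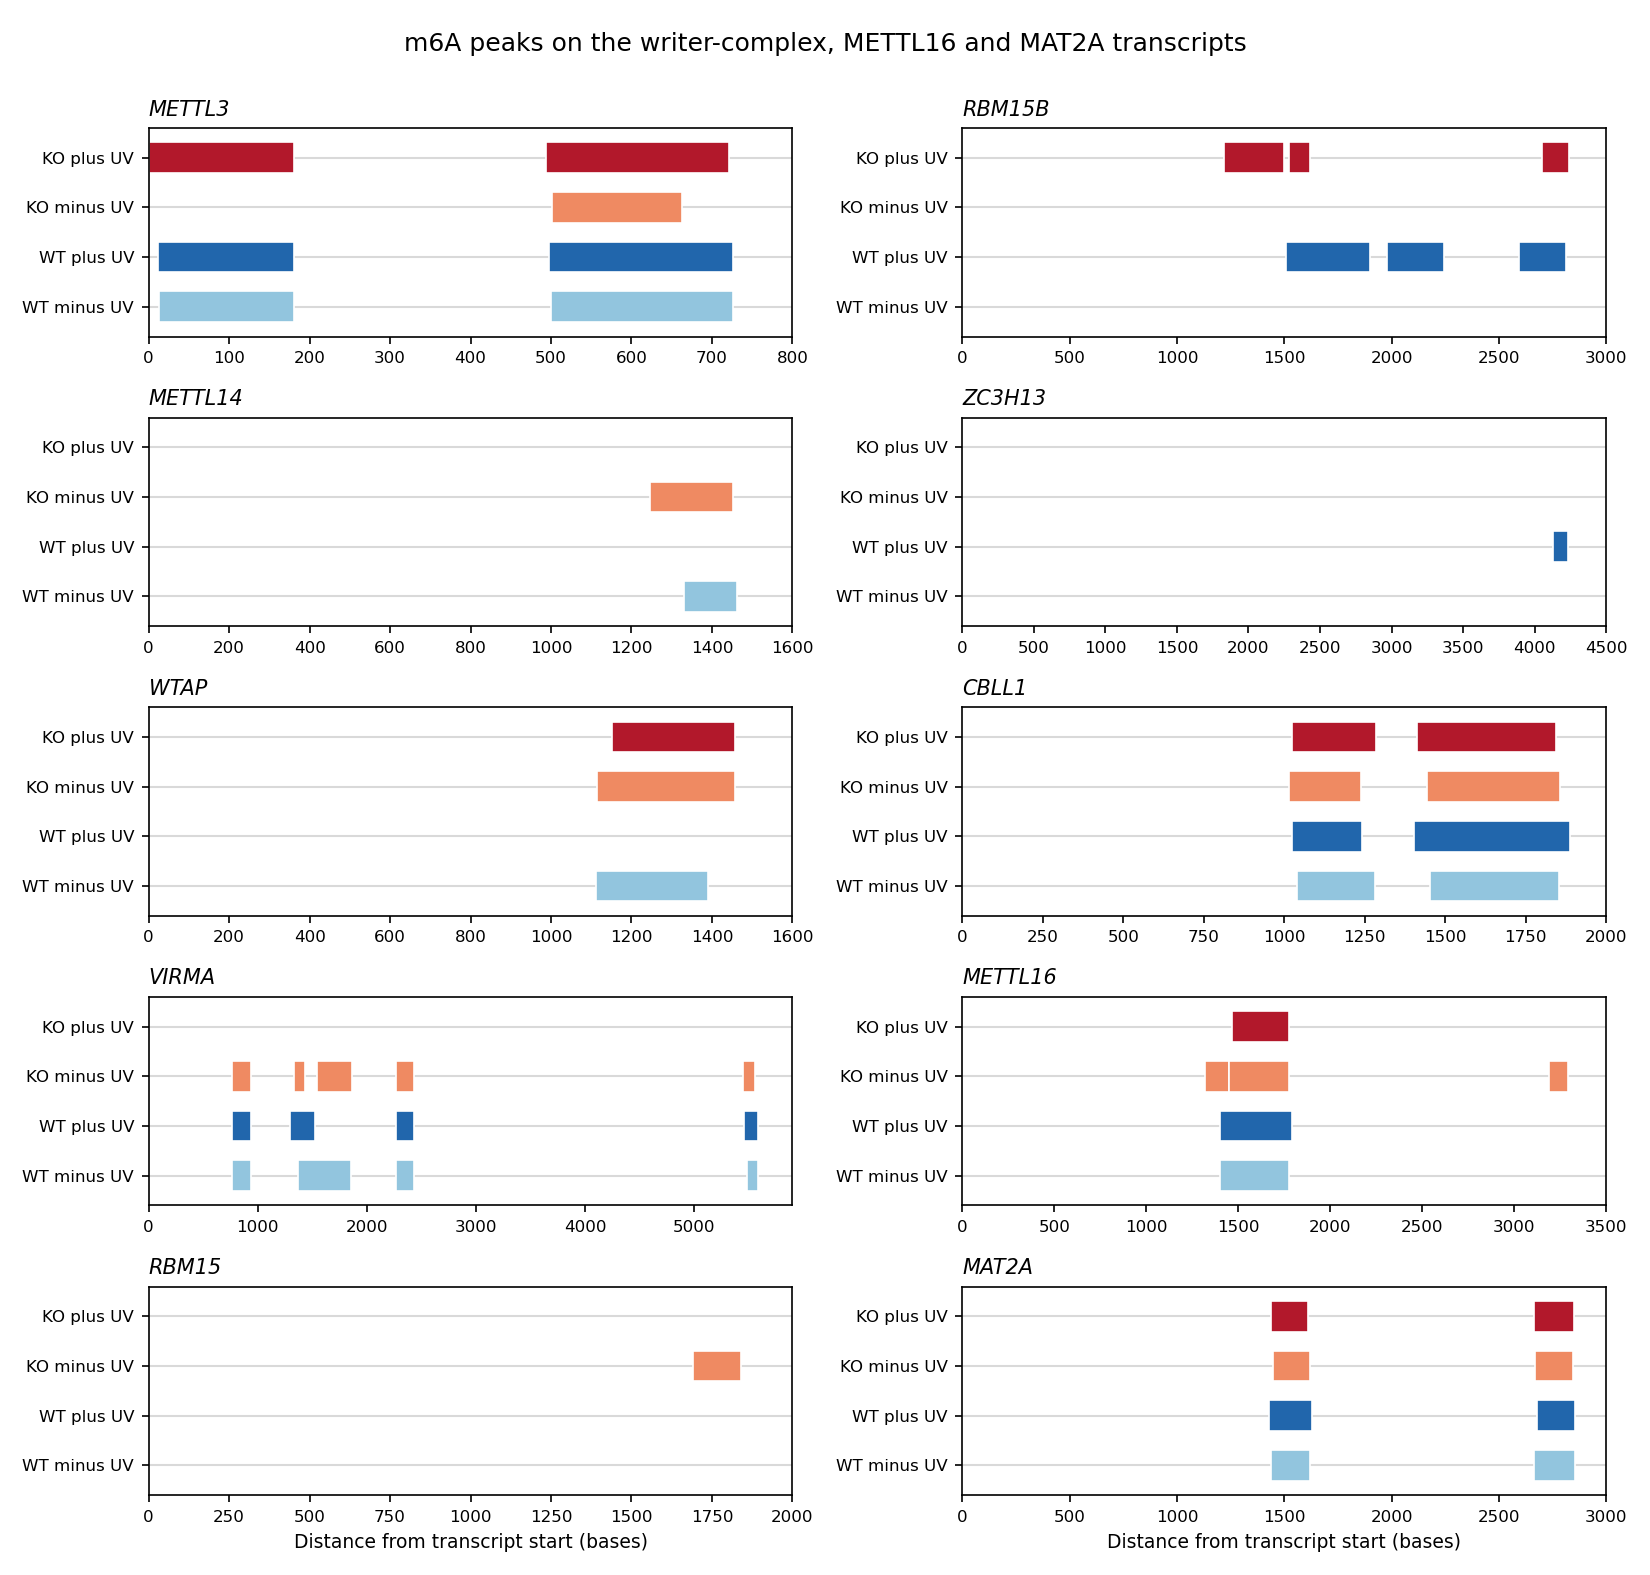
Peaks on each transcript (bars) against the distance from the transcript start in bases, with 1 row per list; grey lines are guides and do not show transcript length. MAT2A and CBLL1 carried 2 peaks in every list, VIRMA had none in KO plus UV, and RBM15B had peaks in the lists with UV and in no other.

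METTL3 (chromosome 14, 21498138 to 21511340, GRCh38) carried a peak at the very start of its transcript and another further in. The start peak covered bases 1 to 180 in KO plus UV, 12 to 180 in WT plus UV and 13 to 180 in WT minus UV. It was absent from KO minus UV. The end at base 180 was the same in all 3 lists, and the starts lay within 12 bases of each other. The other METTL3 peak covered bases 494 to 720 in KO plus UV, 501 to 662 in KO minus UV, 497 to 725 in WT plus UV and 500 to 725 in WT minus UV. All 4 lists shared bases 501 to 662 of it, and the KO minus UV peak was the shortest. The listed transcript of the knocked-out gene thus had a peak in both KO lists.

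The beginning of the METTL3 transcript is shown because the start peak lies on it. The sequence is bases 1 to 28 after the gene's start in the RefSeq table for GRCh38.p14, chr14:21511313-21511340 on the minus strand, with capitals from base 13, where the peak had begun in all 3 lists that held it. The lists give no transcript version, and the match assumes that the listed transcript begins at that base.
METTL3 start: attttccggttaGCCTTCGGGGTGTCCG
The usual context of m6A is GGAC or a relative of it with the methylated A followed by C. On the transcript strand, the first 50 bases held neither GGAC nor AC, the pair of letters within it; on the other strand both were found. Over 35116 such windows of RefSeq genes, 18.9% held GGAC and 86.4% held AC on the transcript strand. On the other strand 17.6% held GGAC and 89.4% held AC, and 33.5% and 99.0% did so on either strand. That these letters are missing from the window says nothing about the antibody or the enzyme. The rest of the peak was not searched. Peaks that touched the first 50 bases made up 10.7% of all peaks in KO plus UV, 9.05% in KO minus UV, 10.3% in WT plus UV and 9.22% in WT minus UV, and the METTL3 peak was the only such peak on the 10 genes.

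METTL14, the RNA-binding partner of METTL3 (chromosome 4, 118685392 to 118715430), had 1 peak in each list without UV and 0 in each list with UV. The peak covered bases 1247 to 1452 in KO minus UV and 1331 to 1462 in WT minus UV, with 122 bases in common. METTL14 was 1 of 217 genes (2.27% of all) found in both lists without UV and in neither list with UV.

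WTAP, the subunit that keeps the core in nuclear speckles (chromosome 6, 159726693 to 159756319), had 1 wide peak in 3 lists. It covered bases 1151 to 1457 in KO plus UV, 1114 to 1456 in KO minus UV and 1113 to 1390 in WT minus UV. WT plus UV had no WTAP peak although that list was the longest of the 4, a pattern shared by 118 genes (1.23%). The ends of the 3 peaks lay within 67 bases of each other, with that of WT minus UV nearest the transcript start.

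VIRMA, the large scaffold subunit (chromosome 8, 94487689 to 94553469), had the most peaks of the 10 transcripts in each list except KO plus UV. It had 0 peaks in KO plus UV, 5 in KO minus UV, 4 in WT plus UV and 4 in WT minus UV. Genes with at least as many peaks made up 5.22% of the genes marked in KO minus UV, 9.85% of those in WT plus UV and 10.0% of those in WT minus UV. Its peaks fell into 4 regions, each found in the same 3 lists. The sharpest covered bases 2267 to 2433 in KO minus UV, 2267 to 2434 in WT plus UV and 2267 to 2433 in WT minus UV. That is a difference of 1 base in its end and of 0 in its start. The peak nearest the transcript start covered 760 to 937 in KO minus UV, 768 to 940 in WT plus UV and 765 to 940 in WT minus UV. The peak furthest along the transcript covered 5451 to 5560 in KO minus UV, 5461 to 5581 in WT plus UV and 5481 to 5581 in WT minus UV.

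The remaining VIRMA region, bases 1291 to 1860, was divided differently in each list. KO minus UV had peaks at 1331 to 1430 and 1545 to 1860, WT plus UV 1 peak at 1291 to 1524, and WT minus UV 1 peak at 1371 to 1851. The first KO minus UV peak was 100 bases wide, the smallest width in the lists. Over all genes, 1288 (13.5%) were missing from KO plus UV and found in the other 3 lists. The 308 genes (3.22%) with at least 4 peaks in each of those 3 lists included 70 (0.732%) with none in KO plus UV, VIRMA among them; the minimum of 4 was set after its values were seen. KO plus UV came from 2 IP libraries, and their part in the missing peaks was not tested.

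RBM15B (chromosome 3, 51391285 to 51397908) and RBM15 (chromosome 1, 110339377 to 110346677) are related proteins that bring the writer to RNA, and their transcripts were marked in different lists. RBM15B had 3 peaks in KO plus UV, 0 in KO minus UV, 3 in WT plus UV and 0 in WT minus UV. The peaks were at bases 1221 to 1500, 1521 to 1620 and 2701 to 2825 in KO plus UV, and at 1506 to 1900, 1981 to 2244 and 2595 to 2812 in WT plus UV. Only 212 bases were covered in both, 42.0% of the 505 covered bases in KO plus UV and 24.2% of the 877 in WT plus UV. The number of peaks was thus equal in the genotypes after UV, while their positions matched only in part. The KO plus UV peak at 1521 to 1620 lay inside a WT plus UV peak, and the one at 2701 to 2825 shared 112 bases with another. The KO plus UV peak at 1221 to 1500 and the WT plus UV peak at 1981 to 2244 overlapped no peak of the other list.

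Genes with a peak in both lists with UV and in neither list without UV numbered 188 (1.97%). With at least 2 peaks in each UV list there were 13 (0.136%), and with at least 3 there was RBM15B alone (0.0105%); both minimums were set after its values were seen. One of its KO plus UV peaks was 100 bases wide. Without peaks of that width, RBM15B kept 2 peaks in KO plus UV and 3 in WT plus UV. With peaks within 100 bases of each other joined, it had 2 in each. RBM15 had a single peak, at bases 1691 to 1840 in KO minus UV, and was 1 of 405 genes (4.24%) found in that list alone.

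ZC3H13, a zinc finger subunit that holds the complex in the nucleus (chromosome 13, 45954465 to 46052746), also rested on 1 peak. It covered bases 4131 to 4230 in WT plus UV, at the smallest width, and 666 genes (6.97%) were found in that list alone. CBLL1, a RING-type ubiquitin ligase also called HAKAI (chromosome 7, 107744142 to 107761667), was at the other extreme, with 2 peaks in every list. The first covered 1024 to 1283 in KO plus UV, 1014 to 1237 in KO minus UV, 1024 to 1240 in WT plus UV and 1041 to 1280 in WT minus UV. The other was the widest peak on the 10 genes in 3 of the 4 lists: 1413 to 1842 in KO plus UV, 1445 to 1857 in KO minus UV, 1403 to 1887 in WT plus UV and 1453 to 1853 in WT minus UV. The CBLL1 bases covered were 690 in KO plus UV, 637 in KO minus UV, 702 in WT plus UV and 641 in WT minus UV. The lists with UV covered more of CBLL1 than the lists without UV in both genotypes, by 53 bases in KO and 61 bases in WT cells. In WT cells the first peak was narrower with UV (217 bases, against 240 without UV) and the other was wider (485 against 401). In KO cells both were wider with UV (260 against 224, and 430 against 413), so the genotypes differed in the first peak. METTL3 (by 245 bases in KO and 4 in WT cells), RBM15B (505 and 877) and MAT2A (10 and 4) also had more with UV. METTL14 (by -206 bases in KO and -132 in WT cells), WTAP (-36 and -278) and VIRMA (-871 and -229) had fewer. Some of these differences were only a few bases, and that of VIRMA in KO cells is its absence from KO plus UV. The share of all genes with either direction was not counted.

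METTL16 (chromosome 17, 2415715 to 2511888) had a peak in the same stretch in every list. It covered bases 1467 to 1775 in KO plus UV, 1402 to 1790 in WT plus UV and 1402 to 1775 in WT minus UV. KO minus UV listed 2 adjoining peaks there, 1321 to 1446 and 1447 to 1774. The one at 1321 to 1446 began nearer the transcript start than the peaks of the other lists. It overlapped the peaks of both WT lists in part and shared no base with the KO plus UV peak. KO minus UV also had a METTL16 peak of 100 bases at 3191 to 3290 that no other list held. The count of 3 in KO minus UV, against 1 in each other list, therefore rested on 2 adjoining peaks and a peak of the smallest width.

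MAT2A, the catalytic subunit of the enzyme that makes SAM in most tissues (chromosome 2, 85539168 to 85545281), had the steadiest pattern. Its first peak covered 1438 to 1610 in KO plus UV, 1448 to 1620 in KO minus UV, 1431 to 1630 in WT plus UV and 1438 to 1620 in WT minus UV. Its other peak covered 2663 to 2850 in KO plus UV, 2667 to 2844 in KO minus UV, 2679 to 2856 in WT plus UV and 2666 to 2856 in WT minus UV. The 4 lists shared 163 bases of the first and 166 bases of the other. The centres lay within 10 and 12 bases of each other, against a median of 22.5 bases over the 4483 regions with 1 peak in each list. Where the coding sequence ends on these transcripts, and whether the peaks lie on the hairpins that METTL16 binds, was not analysed here.

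**Figure D2:**
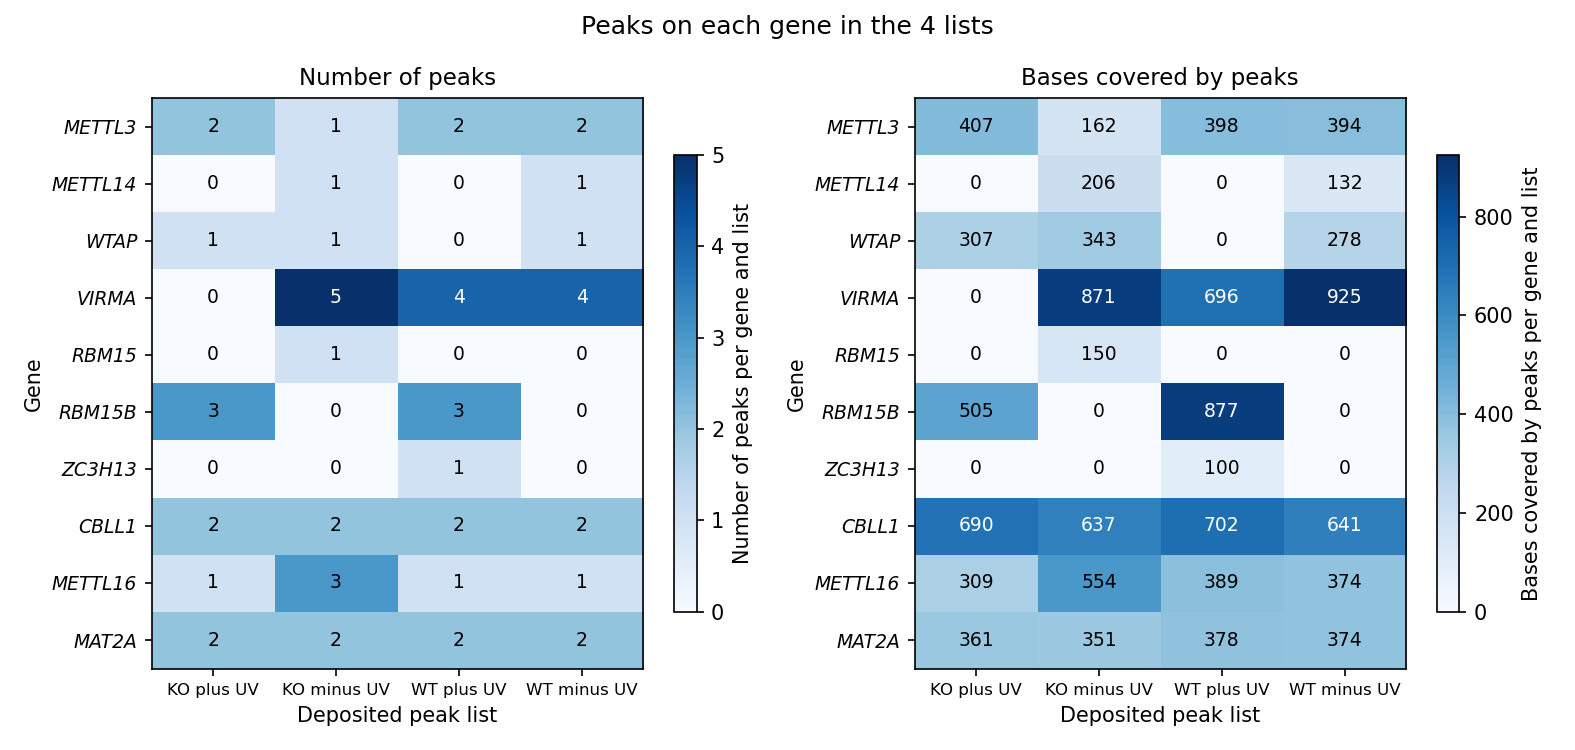
Number of peaks (left) and bases covered by peaks (right) for each gene (rows) in each list (columns), with the values printed in the cells. CBLL1 and MAT2A had 2 peaks in all 4 lists, whereas VIRMA ranged between 0 and 5.

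In KO cells, UV was compared with no UV to see which peaks are found with UV when METTL3 is missing. RBM15B had a peak with UV and none without it, as did 8.62% of all genes, and METTL14, VIRMA and RBM15 had a peak without UV alone, as did 23.8%. Without a counterpart in KO minus UV, a peak that shares at least 1 base, were 4 of the 11 KO plus UV peaks (36.4%, 95% exact binomial interval 10.9 to 69.2), beside 22.6% of all peaks. Without a counterpart in KO plus UV were 9 of the 16 KO minus UV peaks (56.2%, 29.9 to 80.2), beside 47.0%. VIRMA alone held 5 of these 9. Peak numbers were higher with UV for METTL3 and RBM15B (15.9% of all genes), lower for METTL14, VIRMA, RBM15 and METTL16 (38.1%), and equal for the other 4 (46.0%). Intervals cover counting error alone, and peaks on 1 transcript are not independent.

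In WT cells, the same comparison gave RBM15B and ZC3H13 with UV alone (17.4% of all genes) and METTL14 and WTAP without UV alone (8.61%). No WT minus UV counterpart was found for 4 of the 15 WT plus UV peaks (26.7%, 7.79 to 55.1), beside 30.0% of all peaks. No WT plus UV counterpart was found for 2 of the 13 WT minus UV peaks (15.4%, 1.92 to 45.4), beside 22.4%. The 6 other genes had equal numbers of peaks, as did 47.1% of all genes. RBM15B and METTL14 were the genes found in the same UV state alone in both genotypes.

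Without UV, KO was set against WT to find peaks that go with METTL3, with 3 IP libraries behind each list. RBM15 was found in KO minus UV alone, beside 14.7% of all genes, and 0 of the 10 were found in WT minus UV alone, beside 16.4%. WT minus UV lacked 2 of the 16 KO minus UV peaks (12.5%, 1.55 to 38.3), beside 31.1% of all peaks. Those 2 were the RBM15 peak and the narrow METTL16 peak. KO minus UV lacked 1 of the 13 WT minus UV peaks (7.69%, 0.195 to 36.0), beside 32.1%. That peak was the start peak of METTL3 itself, which the other KO list, KO plus UV, did hold (bases 1 to 180). Both intervals include the value of all peaks.

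After UV, WTAP had a peak in KO plus UV alone, beside 5.68% of all genes, and VIRMA and ZC3H13 in WT plus UV alone, beside 31.4%. WT plus UV lacked 2 of the 11 KO plus UV peaks (18.2%, 2.28 to 51.8), beside 19.3% of all peaks. KO plus UV lacked 6 of the 15 WT plus UV peaks (40.0%, 16.3 to 67.7), beside 51.0%. VIRMA alone held 4 of these 6. KO plus UV came from 2 IP libraries and WT plus UV from 4.

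**Figure D3:**
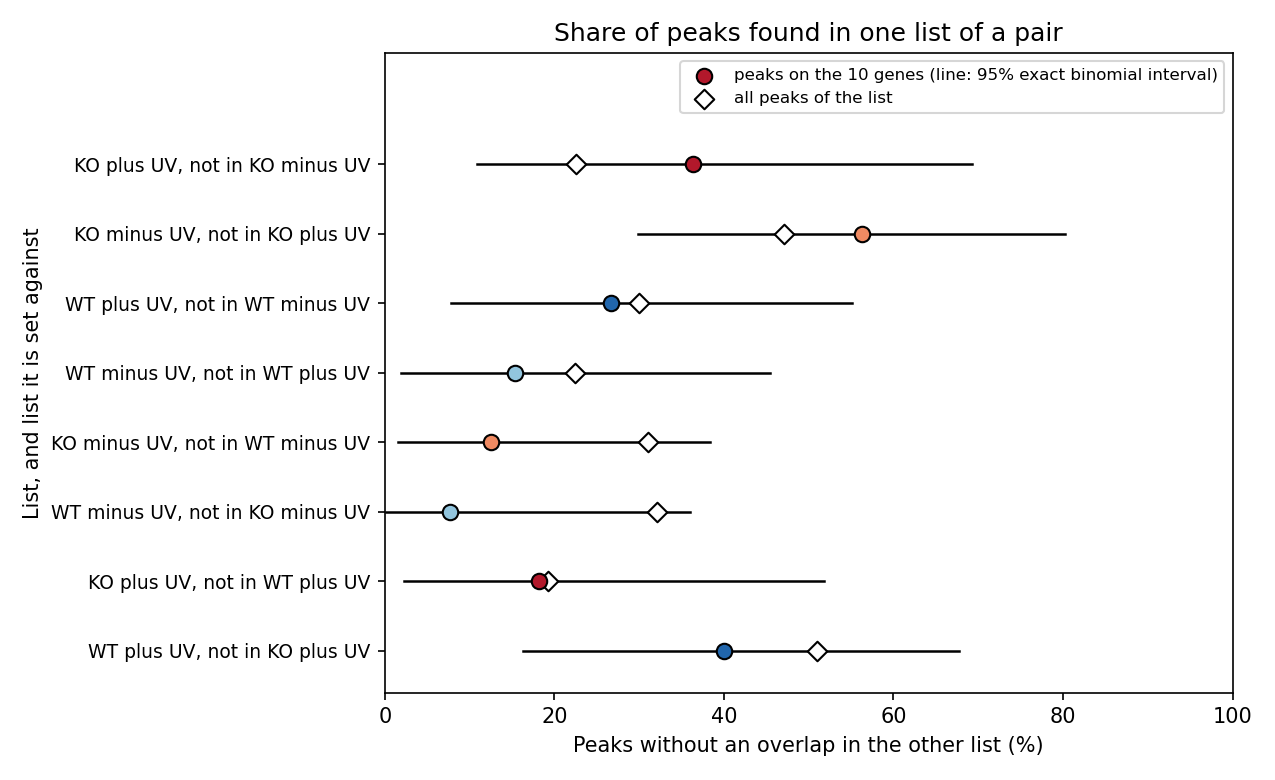
Percent of the peaks of a list that overlapped no peak of the list it is set against, for the 10 genes (circles coloured by list, lines are 95% exact binomial intervals) and for all peaks (diamonds). All 8 intervals include the value of all peaks, and the lowest shares, 12.5% and 7.69%, belong to KO minus UV and WT minus UV set against each other.

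Merging peaks that overlapped across lists gave 20 regions on the 10 transcripts. Of these, 6 were in every list, beside 25.7% of all 20811 regions: 2 each on CBLL1 and MAT2A and 1 each on METTL3 and METTL16. The 4 VIRMA regions were in every list except KO plus UV, beside 12.4% of all regions. RBM15B had 2 regions in both lists with UV and in neither list without UV, beside 1.98%. The 5 regions of a single list were 2 on RBM15B and 1 each on RBM15, ZC3H13 and METTL16, beside 31.6%.

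Several of the transcripts carried wide peaks. The median width on the 10 genes was 227 bases in KO plus UV, 175.5 in KO minus UV, 217 in WT plus UV and 191 in WT minus UV. Over all peaks it was 176 in KO plus UV, 182 in KO minus UV, 189 in WT plus UV and 186 in WT minus UV. Peaks over 300 bases numbered 3 of 11 in KO plus UV (6.34% of all peaks), 4 of 16 in KO minus UV (7.98%), 3 of 15 in WT plus UV (9.69%) and 3 of 13 in WT minus UV (9.09%). CBLL1 gave 1 such peak in every list and METTL16 another in every list, so the 13 are not independent. The limit of 300 bases was set after the values were seen.

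**Figure D4:**
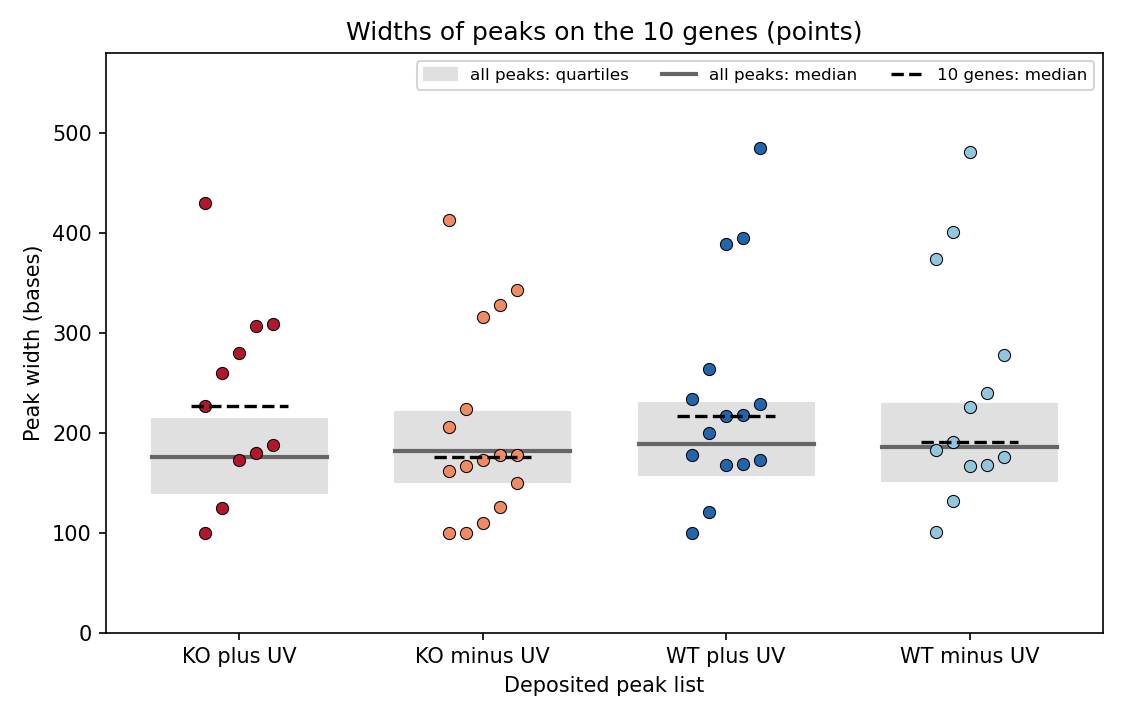
Width in bases of each peak on the 10 genes (points) by list, with their median (dashed) and the median and quartiles of all peaks of that list (grey line and band). The points above 300 bases belong to CBLL1, METTL16, WTAP, VIRMA and RBM15B.

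The genes whose coverage was most like that of each of the 10 were found by the sum, over the 4 lists, of absolute differences in bases covered. For METTL3 they were RASSF7 (90 bases), BNIP2 (98) and YWHAQ (105). For MAT2A they were FAM220A, TMEM231 and TRA2B (43 bases each), and for CBLL1 SDC1 (37), COG8 (66) and SOWAHC (125). VIRMA was nearest to PRDM4 (92), ATXN7 (130) and PCNX2 (146), METTL16 to FOXRED2 (69), PPP2CA (73) and RAD17 (89), and WTAP to ZDHHC6 (69), AFTPH (105) and GSE1 (117). METTL14 was nearest to SARS2 (10) and ADAMTSL3 (17). RBM15B had the most distant neighbours, RANBP10 (314), SRBD1 (351) and BRINP1 (353). RBM15 and ZC3H13, with 1 peak each, had 3 or more genes at a distance of 0 and are not distinguished from them.

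The genes listed around MAT2A for the methionine and SAM cycle, not all of them enzymes, were counted as well. Of 23, 18 had a peak in a list: 12 in KO plus UV, 13 in KO minus UV, 14 in WT plus UV and 16 in WT minus UV. Among all genes, 57.7, 72.9, 83.4 and 74.6% had a peak, in the same order of lists. MTR, the methionine synthase, had 0 peaks in KO plus UV, 4 in KO minus UV, 0 in WT plus UV and 7 in WT minus UV. A peak in both lists without UV and in neither list with UV was found for 2.27% of all genes. In KO cells 2 of the 18, NNMT and SHMT1, had a peak with UV alone (8.62% of all genes), and 3, MTR, AHCYL1 and AHCYL2, without UV alone (23.8%). In WT cells SRM, the spermidine synthase, had a peak with UV alone (17.4%), and 3, MTR, MTAP and CTH, without UV alone (8.61%). AHCY, which clears the by-product of SAM-dependent methylation, had 1 peak in each KO list and 0 in each WT list, a pattern shared by 2.00% of all genes (any number of peaks in both KO lists, no peak in WT cells). MAT2B, the regulatory partner of MAT2A, had 1 peak in every list, of 109 bases in KO plus UV, 132 in KO minus UV, 117 in WT plus UV and 125 in WT minus UV. Without UV, AHCY had a peak in KO alone (14.7% of all genes), and 4, MTAP, SHMT1, NNMT and CTH, in WT alone (16.4%). After UV, AHCY had one in KO alone (5.68%), and 3, AHCYL1, SRM and AHCYL2, in WT alone (31.4%).

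Of 44 other RNA methyltransferases and cofactors, 37 had a peak in a list: 23 in KO plus UV, 28 in KO minus UV, 35 in WT plus UV and 30 in WT minus UV. Among all genes, 57.7, 72.9, 83.4 and 74.6% had a peak, in the same order of lists. In KO cells 4 had a peak with UV alone (MRM1, NSUN3, TFB2M and NSUN4; 8.62% of all genes) and 9 without UV alone (23.8%), among them METTL15, HENMT1, TRMT6 and FBL. In WT cells 5 had a peak with UV alone (17.4%), among them NSUN4, METTL4, METTL2B and TFB2M, and 0 without UV alone (8.61%). Without UV, 2 of the 37, TRMT1 and METTL17, had a peak in KO alone (14.7%), and 4, MRM1, NSUN3, METTL8 and DIMT1, in WT alone (16.4%). After UV, TRMT1 had one in KO alone (5.68%), and 13 genes had one in WT alone (31.4%), among them LARP7, METTL4, METTL15 and ALKBH8. TRMT1, a tRNA methyltransferase, had 1 peak in each KO list and 0 in each WT list (2.00%). METTL2B and METTL2A are near-identical genes, so their peaks are uncertain. PCIF1, which methylates adenosine next to the cap, had 1 peak in every list, of 265 bases in KO plus UV, 285 in KO minus UV, 288 in WT plus UV and 303 in WT minus UV.

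Readers and demethylases of m6A had a peak in 15 of 17 genes: 11 in KO plus UV, 15 in KO minus UV, 15 in WT plus UV and 13 in WT minus UV. FMR1, an RNA-binding protein, had 0 peaks in KO plus UV, 3 in KO minus UV, 2 in WT plus UV and 0 in WT minus UV. It was picked after its values were seen, and the share of all genes with its pattern was not counted. All 10 proteins listed as partners of the writer in the nucleus had a peak, 6 in KO plus UV, 9 in KO minus UV, 9 in WT plus UV and 10 in WT minus UV. Beside the counts of both sets, 57.7, 72.9, 83.4 and 74.6% of all genes had a peak, in the same order of lists. SETD2, a histone methyltransferase whose mark the writer can bind, had 0 peaks in KO plus UV, 2 in KO minus UV, 5 in WT plus UV and 4 in WT minus UV. Some genes of each pathway list were missing from KO plus UV and present in the other 3 lists, as were 13.5% of all genes. They were 3 of these 10 partners (SETD2, BCLAF1 and SMAD2) and 3 of the 15 readers and demethylases (YTHDF3, YTHDC2 and ALKBH5). So were 8 of the 37 other RNA methyltransferases and cofactors, and 2 of the 18 genes listed for the methionine and SAM cycle. NUDT21, a subunit of a polyadenylation factor, had 2 peaks in WT minus UV and 0 in the other lists. Over all merged regions, 8.53% were in WT minus UV alone. The share of genes with this pattern was not counted.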

How the data were processed

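Single-end reads of 50 bases came from polyadenylated RNA; the submitters' processing notes name TopHat2 2.0.14 and the hg38 build. The sources used here give neither the peak caller and its settings nor how replicates and inputs were combined. The 4 deposited lists, 1 per condition, hold values with no unit of signal (other): the start and end of each peak, counted from 1 with both ends included, along a RefSeq transcript. Of 9674 transcripts, 9562 (98.8%) were matched to a symbol through a RefSeq table (GRCh38.p14). Of the 10 genes, 9 had a sequence window in the table used. Peaks of 2 lists on 1 transcript that had at least 1 base in common counted as counterparts. Shares carry exact binomial (Clopper-Pearson) intervals computed in scipy 1.17.1; depth is unknown. Simulated lists with known answers were used to test the overlap counts. The named genes are the 10 chosen genes, the 3 genes nearest to each in covered bases, and up to 4 genes of each pathway list per comparison and direction, longest coverage first; 1 of the nearest genes is not reported here. MTR, AHCY, TRMT1, PCIF1, MAT2B, FMR1, SETD2, NUDT21, YTHDF3, YTHDC2, ALKBH5, EPCAM and RBFOX3 were singled out after their values were seen. The genes and lists were chosen with earlier results of these data known.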

Additional observations from a re-analysis of the deposited data

Results flagged for a closer look

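The total of peaks on the 10 genes differed with UV in opposite directions in the genotypes: by -5 in KO cells (11 in KO plus UV, 16 in KO minus UV) and by 2 in WT cells (15 in WT plus UV, 13 in WT minus UV). With 1 list per condition this difference was not tested. All peaks differed in the same directions, by -4381 in KO and 1476 in WT cells. VIRMA had none in KO plus UV but 5 in KO minus UV, and the other 9 genes held 11 peaks in either KO list.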

How the results depend on the processing

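Alternatives left out copy-numbered accessions or peaks of 100 bases, joined peaks within 100 bases, asked for an overlap of 50% of the shorter peak or of both, and compared genes in place of peaks. A further one, leaving out KO plus UV, was chosen after seeing the data. Of 102 values recomputed for the 10 genes, 98 stayed within 1.5 times a count or within the interval of a share. The 23 values without copy-numbered accessions could not move, because none of the 10 genes had such an accession. The intervals of the shares were wide, so a share could change much and still count as unmoved. The 5 regions of a single list became 3 with peaks joined and 10 with 50% of both peaks required. The 6 regions in every list became 10 of the 3 remaining lists without KO plus UV. By genes, 0% of the 7 with a WT minus UV peak lacked a KO minus UV peak, against 7.69% of peaks. ZC3H13 had 0 peaks in any list without peaks of 100 bases. Beyond the first 50 bases of METTL3, the search for m6A motifs inside peaks was not run, since whole transcript sequences were not used here. No paired analysis was possible because each list covers all replicates of a condition; for the same reason no replicate could be left out.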
